A study of Mus musculus with 7 samples.

Results

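Endothelial identity genes were examined in subcutaneous pancreatic ductal adenocarcinoma (PDA) tumors of mice. The set consisted of 10 genes, Pecam1, Cdh5, Tie1, Emcn, Eng, Vwf, Erg, Robo4, Egfl7 and Esam, each taken as the row of the deposited table with that symbol. All 10 were found among the 38026 genes of the table, and all 10 passed the filter on low values that left 21322 genes to test.

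Bulk RNA-seq was done on 7 untreated tumors, each grown for 2 weeks in the flank of a C57BL/6 mouse, and the comparison asks how tumors differ when Krt19, a keratin gene, was edited in the cancer cells. All tumors came from 1242 KPC cells, a pancreatic tumor line with the Trp53 R172H allele recombined by a Pdx1-driven Cre, and the cells of both groups carried Cas9. The control cells carried a scrambled guide RNA (sgScramble, replicates 1 to 4, n = 4), and the edited cells a guide that targets Krt19 (sgKrt19, numbered 5, 6 and 8, n = 3). The mice were bought at 6 weeks of age and housed for 2 weeks before use. The sources do not say which guide against Krt19 was used, or whether the injected line was polyclonal or a clone, so each group may stand for 1 edited line. The editing was in the cancer cells, so the endothelial cells sampled here were those of an unedited host.

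Endothelial cells line blood and lymph vessels and hold together through junctions built on VE-cadherin, with PECAM1 and ESAM at the same cell borders. The TIE and ROBO receptors and endoglin, a coreceptor for bone morphogenetic proteins, act at the endothelial surface, and ERG, an ETS family transcription factor, maintains the identity of the cells. Von Willebrand factor, which endothelial cells store in Weibel-Palade bodies, binds platelets at sites of injury, and its level is known to vary with the type of vessel. In tumors, these genes are in common use as a measure of blood vessel content.

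Values are normalized read counts, that is, the reads of a gene after division by a per-library size factor, and ± gives the SD between tumors of 1 group. The libraries held 40781199 to 44972100 reads, and the 10 genes were covered by 91 to 1694 reads per library. The lowest depth, 91 reads, belonged to Erg. In the check of the edited gene, Krt19 fell from 23053 ± 4392 (n = 4) to 2012 ± 434 (n = 3). Replicates are separate tumors as far as the labels show, so the p-values measure the spread between tumors.

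Because ERG and related ETS factors bind a short core sequence, promoters of the genes were searched for CCGGAA and CAGGAA on both strands, from 250 bases before the transcription start to 50 after it. The RefSeq table for GRCm38.p6 held promoters of 6 of the 10 genes, with 10 start sites in all: 1 each for Tie1, Eng, Robo4 and Emcn, and 3 each for Egfl7 and Erg. Pecam1, Cdh5, Vwf and Esam had no entry. A match stood in 7 of the 10 start sites, and in at least 1 start site of each of the 6 genes. Among all 32851 promoters of the same length, 41.4% held either word, 30.6% held CAGGAA and 14.9% held CCGGAA, and a gene with several start sites has more chances of a match. All matches of the 6 genes were to CAGGAA. The promoters shown are the first listed start sites of Emcn (chr3:137340828-137341127, plus strand), Egfl7 (chr2:26580833-26581132, plus strand), Tie1 (chr4:118489800-118490099, minus strand) and Eng (chr2:32646345-32646644, plus strand), chosen because these genes were called higher below, and capitals mark CAGGAA or its opposite strand TTCCTG.
Emcn: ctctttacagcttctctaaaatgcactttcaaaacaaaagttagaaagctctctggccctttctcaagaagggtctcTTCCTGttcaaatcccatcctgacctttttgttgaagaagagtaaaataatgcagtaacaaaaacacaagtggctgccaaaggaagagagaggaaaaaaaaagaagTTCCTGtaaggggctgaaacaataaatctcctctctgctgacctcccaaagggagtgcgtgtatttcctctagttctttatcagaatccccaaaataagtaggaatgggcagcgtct
Egfl7: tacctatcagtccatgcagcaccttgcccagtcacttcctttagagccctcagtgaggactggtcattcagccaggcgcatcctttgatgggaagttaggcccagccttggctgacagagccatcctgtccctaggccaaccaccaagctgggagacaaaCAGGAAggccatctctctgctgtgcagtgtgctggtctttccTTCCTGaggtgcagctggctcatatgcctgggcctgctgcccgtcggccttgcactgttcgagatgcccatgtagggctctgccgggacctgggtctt
Tie1: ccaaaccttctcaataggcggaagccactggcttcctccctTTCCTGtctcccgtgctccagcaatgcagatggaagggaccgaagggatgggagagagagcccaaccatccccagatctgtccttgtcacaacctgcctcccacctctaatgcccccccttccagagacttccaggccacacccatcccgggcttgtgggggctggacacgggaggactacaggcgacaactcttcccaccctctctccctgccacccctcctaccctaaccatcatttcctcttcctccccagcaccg
Eng: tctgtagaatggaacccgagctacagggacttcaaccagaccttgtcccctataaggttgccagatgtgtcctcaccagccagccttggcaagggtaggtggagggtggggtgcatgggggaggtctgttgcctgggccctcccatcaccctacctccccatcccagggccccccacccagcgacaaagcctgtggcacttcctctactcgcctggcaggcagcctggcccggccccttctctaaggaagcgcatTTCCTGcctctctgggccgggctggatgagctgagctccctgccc
In Emcn the matches began 173 and 67 bases before the start, and in Egfl7 they began 90 and 48 bases before it. The match of Tie1 began 209 bases before the start, and that of Eng lay within the 50 bases after it. The GATA word AGATAA was in none of these 4 promoters and in 11.2% of all promoters. Among all start sites of the 6 genes, it stood only in start site 3 of Erg. These matches describe the letters of the windows and were not tied to any measurement of binding.

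Of the 10 genes, 5 were higher in the sgKrt19 tumors by limma at an adjusted p under 0.05 (Emcn, Egfl7, Tie1, Pecam1 and Eng), where 17.9% of all tested genes were called higher. None of the 10 was called lower by limma, edgeR or DESeq2, where limma called 16.0% of all tested genes lower at an adjusted p under 0.05. At an unadjusted p under 0.05 none was lower by these tools, and 1 was lower by limma with scaling by library size alone. The log2 fold change was positive for 9 genes and negative for Vwf, with a median of 0.50 over the 10 genes and 0.01 over all tested genes. In 7 genes every sgKrt19 tumor lay above every sgScramble tumor, where 21.7% of all tested genes had groups that did not overlap in this direction and 19.3% in the other. The calls depended on the scaling and on single libraries. When values were scaled by library size alone, a scaling that moved the median log2 fold change of all genes to −0.21, Emcn was the 1 gene called and the median of the 10 genes was 0.28. In the same scaling 2187 of the 21322 tested genes were called higher. The higher side held 27.7% of all calls, against 52.8% with the deposited scaling. In a bulk tumor, more endothelial cells and more RNA per endothelial cell cannot be told apart.

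**Figure D1:**
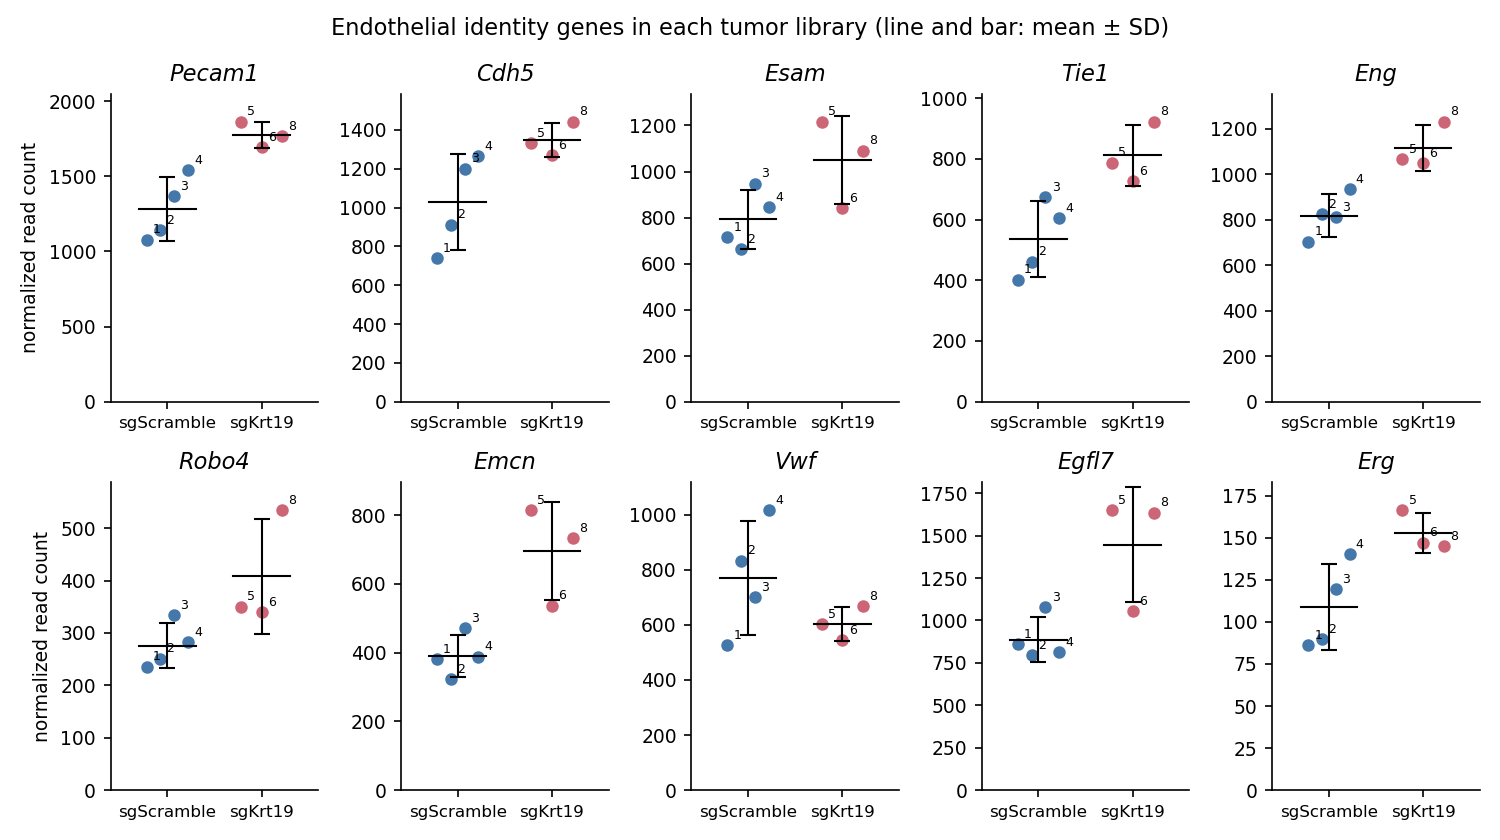
Normalized read counts (vertical axes, starting at 0) of the 10 endothelial identity genes in each library. Points are libraries labelled with their replicate number, and lines with bars are the mean ± SD of the 4 sgScramble and 3 sgKrt19 tumors. Vwf is the 1 gene with the lower mean in the sgKrt19 tumors.

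Among the genes of the endothelial junction, Pecam1 encodes an adhesion molecule of cell borders that is also present on platelets and many leukocytes. It stood at 1079, 1140.2, 1366 and 1540.5 in sgScramble 1 to 4 and at 1865, 1694 and 1769.5 in sgKrt19 5, 6 and 8. All 3 sgKrt19 tumors were above the highest control, and the controls spread more widely than the edited tumors. On the log2 scale the rise was 0.48 with an SE of 0.136 (limma adjusted p = 0.0212). It was not called without sgScramble 2, sgKrt19 5 or sgKrt19 8, where the limma adjusted p lay between 0.0555 and 0.0673.

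Cdh5, which encodes VE-cadherin, had 740.3, 912.0, 1200.1 and 1264 in the controls and 1333, 1268 and 1443 in the sgKrt19 tumors. The groups did not overlap, but sgKrt19 6 stood 4.13 above sgScramble 4, a gap far smaller than the spread of the controls. Its log2 fold change of 0.42 (95% interval 0.02 to 0.82) did not pass the threshold after adjustment (limma adjusted p = 0.0930). For Esam, an immunoglobulin-type adhesion molecule of tight junctions, the values were 713, 663, 947 and 844 in the controls and 1217, 841 and 1091 in the sgKrt19 tumors. Here sgKrt19 6 lay within the range of the controls, and the log2 fold change of 0.40 (95% interval 0.04 to 0.77) was not called (limma adjusted p = 0.0820). Cdh5 was called without sgScramble 4 (limma adjusted p = 0.0497), and Esam without sgScramble 3 or without sgKrt19 6 (0.0464 and 0.0355). Of the 3 adhesion genes, Pecam1 alone passed the threshold, and the intervals of all 3 covered much the same range.

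Among the surface receptors, Tie1 encodes an orphan tyrosine kinase that modulates angiopoietin signaling. Its values were 402, 461, 674 and 606 in sgScramble 1 to 4 and 787, 726 and 923 in the sgKrt19 tumors. The lowest edited tumor was 52.1 above the highest control, which gave a log2 rise of 0.62 with an SE of 0.185 (limma adjusted p = 0.0267). The call was lost without sgScramble 2, sgKrt19 5 or sgKrt19 8, with limma adjusted p from 0.0622 to 0.0927. Eng, the endoglin gene, is expressed by macrophages and stromal cells as well. It had 703, 823, 812 and 933 in the controls and 1066, 1049 and 1230.8 in the sgKrt19 tumors. Its controls were the most alike of the 10 genes, with a coefficient of variation of 11.5%, and the rise on the log2 scale was 0.45 with an SE of 0.126 (limma adjusted p = 0.0207). Without sgScramble 2 or sgKrt19 8 the limma adjusted p was 0.0510 and 0.0765.

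Robo4 encodes the endothelial member of the roundabout receptors. It had 236, 251, 334 and 282 in the controls and 350.3, 339 and 535 in the sgKrt19 tumors. In sgKrt19 5 and 6 it was close to sgScramble 3, and sgKrt19 8 stood apart from the other two. With a log2 fold change of 0.54 (95% interval 0.11 to 0.97) and a limma adjusted p of 0.0529, Robo4 was just outside the threshold. It was called by DESeq2, and by limma without sgScramble 3 (adjusted p = 0.0354) or without sgKrt19 6 (adjusted p = 0.0482).

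Emcn showed the largest fold change of the 10 genes. It encodes endomucin, a sialomucin of capillary and venous endothelium. Its values were 381, 324, 471 and 389 in sgScramble 1 to 4 and 815, 537 and 733 in sgKrt19 5, 6 and 8. The means were 391 ± 60.6 (n = 4) and 695 ± 143 (n = 3), and the groups did not overlap. This amounted to 0.82 on the log2 scale, with an SE of 0.176 (limma adjusted p = 0.00653). Emcn was called in 14 of 15 alternative settings, the exception being the test for a change beyond 1.5-fold.

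Egfl7 and Vwf encode the secreted proteins of the set. Egfl7 encodes a matrix protein of endothelium and hosts the microRNA miR-126. It had 859, 794, 1079 and 814 in the controls and 1651, 1055 and 1636 in the sgKrt19 tumors. Library sgKrt19 6 fell just below sgScramble 3, so the groups overlapped, while the other sgKrt19 tumors were far above all controls. Egfl7 rose by 0.69 on the log2 scale with an SE of 0.177 (limma adjusted p = 0.0148), and was not called without sgKrt19 5 or without sgKrt19 8 (limma adjusted p = 0.0601 and 0.0593). Exons of Egfl7 share 7.37% of their bases with Gm20532 on the same strand and 1.79% with Agpat2 on the other, so a small part of its reads may belong to them.

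Vwf had 527, 833, 701 and 1016 in sgScramble 1 to 4 and 601, 543 and 667 in sgKrt19 5, 6 and 8. The sgKrt19 tumors lay within the lower part of the range of the controls, of which sgScramble 1 was the lowest of all 7 tumors. Its log2 fold change of −0.31 (95% interval −0.76 to 0.13) was not called (limma adjusted p = 0.245). Without sgScramble 1, Vwf was called lower, having fallen by 0.48 on the log2 scale (limma adjusted p = 0.0437), the 1 alternative of 15 that did so.

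Erg, the transcription factor of the set, had the fewest reads. Its values were 86.4, 89.9, 119.6 and 140.0 in the controls and 166, 147 and 145 in the sgKrt19 tumors. The groups were apart by 4.88 between sgScramble 4 and sgKrt19 8, and the log2 fold change of 0.51 (95% interval 0.05 to 0.97) was not called (limma adjusted p = 0.0811). Without sgScramble 4 it was called (limma adjusted p = 0.0479).

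**Figure D2:**
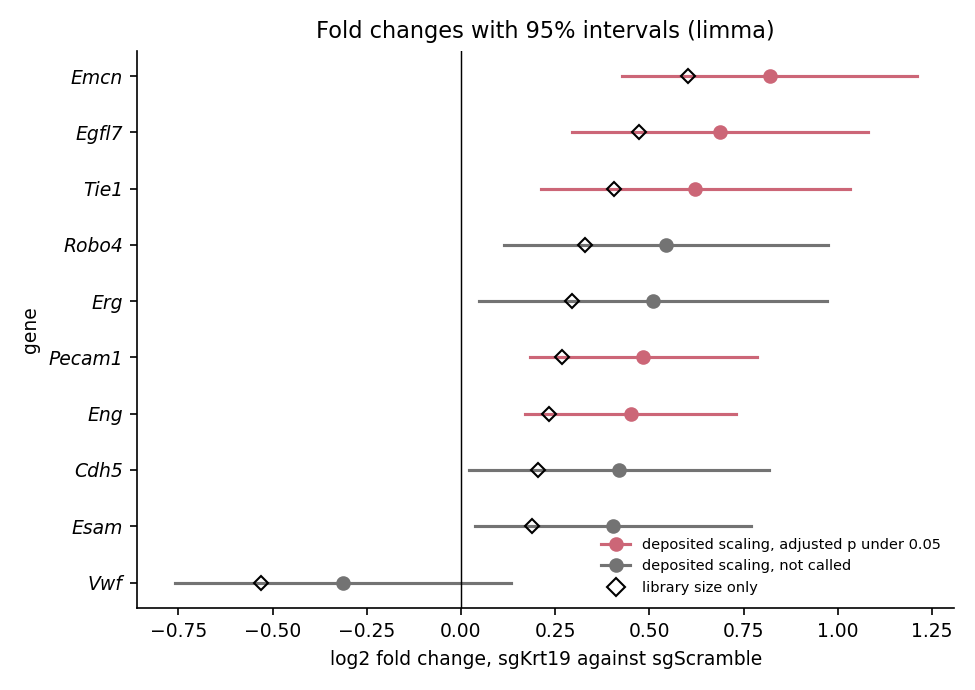
Log2 fold change (horizontal axis) of each gene in sgKrt19 against sgScramble tumors, with 95% intervals from limma on the deposited scaling (circles, red where the adjusted p was under 0.05). Open diamonds give the fold change with scaling by library size alone, which lies to the left of the circle for each gene and keeps its sign.

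The same libraries were high or low for most of the genes. Among the controls the highest library was sgScramble 3 for 5 genes and sgScramble 4 for the other 5, and the lowest was sgScramble 1 for 7 genes and sgScramble 2 for 3. Among the edited tumors sgKrt19 6 was lowest for 9 genes. Summed over the 10 genes, the values were 5727, 6292, 7705 and 7828 in sgScramble 1 to 4 and 9852, 8200.4 and 10173 in sgKrt19 5, 6 and 8. The sum was thus 6888 ± 1041 (n = 4) in the controls and 9408 ± 1058 (n = 3) in the edited tumors, with sgKrt19 6 close to the highest control.

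Vwf was set apart from the other genes within the libraries. Each gene was also expressed as its log2 level minus the mean log2 level of the other 9 in the same library, a quantity that another scaling of the libraries leaves nearly unchanged. For Vwf it was 0.17, 0.77, 0.14 and 0.74 in sgScramble 1 to 4 and −0.48, −0.36 and −0.39 in sgKrt19 5, 6 and 8. All edited tumors were below all controls, and the group means differed by −0.86. For each of the other 9 genes the groups overlapped on this measure, with differences between −0.07 for Esam and 0.40 for Emcn. As a share of the summed value of the 10 genes, Vwf made up 9.10% to 13.2% in the controls and 6.10% to 6.62% in the edited tumors. Among the controls the Vwf measure was low in sgScramble 1 and 3 and high in sgScramble 2 and 4. Those were also the control pairs most alike over the whole table (chi-square per degree of freedom 25.45 and 17.24, against 36.72 to 74.18). The longest coding transcript of Vwf has 8834 bases, against 1391 to 4952 in the other 9 genes. The part of these features in the Vwf measure was not tested. The contrast between Vwf and the rest was noticed in these data and was not put to a test.

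**Figure D3:**
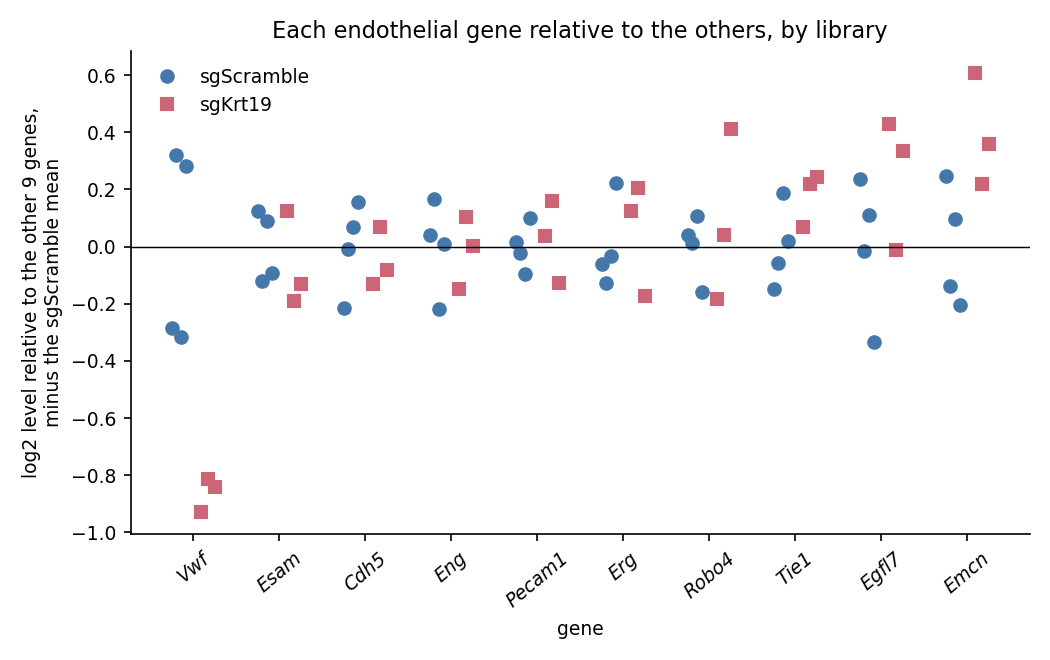
Log2 level of each gene relative to the mean of the other 9 in the same library, with the mean of the sgScramble tumors set to 0 (vertical axis). Circles are sgScramble and squares sgKrt19 tumors, and Vwf is the 1 gene whose groups do not overlap.

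To compare levels between genes, reads were divided by the length of the longest coding transcript and by the library total, giving RPKM, which are reads per kilobase at a fixed library depth. In the controls the order of mean levels ran from Egfl7 (15.9 RPKM) through Esam (10.6), Pecam1 (9.35), Cdh5 (6.48), Eng (5.99), Emcn (3.78), Tie1 (3.18), Vwf (2.19) and Robo4 (1.40) to Erg (0.844). Neighbours in this order overlapped between libraries except Egfl7 and Esam, Eng and Emcn, and Robo4 and Erg. In the sgKrt19 tumors the order was the same except that Robo4 (1.79 RPKM) stood above Vwf (1.47 RPKM). On this scale, which uses library totals, the groups did not overlap for Emcn and overlapped for the other 9 genes.

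Other genes expressed by endothelial cells were read beside the 10. Over all tested genes, limma called 17.9% higher and 16.0% lower, the shares to set beside each list count below. From a list of 28, all tested, 12 were higher, 1 was lower and 15 were not called, with a median log2 fold change of 0.52. The highest was S1pr1, a sphingosine 1-phosphate receptor that stabilizes vessels, at 558, 466, 543 and 596 in the controls and 1181, 862 and 1587 in the sgKrt19 tumors (log2 fold change 1.12, limma adjusted p = 0.00183). All edited tumors were above all controls for S1pr1, and this was also so for Myct1 (0.97, limma adjusted p = 0.00293). The 1 gene called lower was Ptprb, the endothelial phosphatase VE-PTP that acts on the TIE receptors and VE-cadherin. Ptprb had 1013, 1594, 1059 and 1948 in the controls and 635, 669 and 480 in the edited tumors (log2 fold change −1.20, limma adjusted p = 0.0036). Flt1, the VEGF receptor 1 gene, was not called (log2 fold change −0.40, limma adjusted p = 0.0541), but was called without sgScramble 3 or sgKrt19 5 (0.0369 and 0.0278) and by edgeR and DESeq2. With scaling by library size alone, 5 of the 28 were called higher, among them S1pr1 and Myct1, and 2 lower, Ptprb and Flt1. In that scaling 2187 of all 21322 tested genes were called higher and 5705 lower.

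Counts for genes of vessel subtypes stand beside shares of 17.9% called higher and 16.0% called lower over all tested genes. Of 7 arterial genes 3 were higher and 1 lower (median log2 fold change 0.25). Sema3g, a semaphorin of arterial endothelium, rose by 1.19 on the log2 scale and Gja4, a gap junction connexin, by 1.04, whereas Hey1, a Notch target, fell by 0.66 and Efnb2, the arterial ephrin, stood at −0.20 and was not called. None of 4 tested venous genes was called by limma or edgeR, and none had an unadjusted p under 0.05 by limma (median 0.28), while DESeq2 called 1 higher and limma with library size alone called 2 lower. Their log2 fold changes ranged from −0.23 for Ephb4, the venous ephrin receptor, to 0.86 for Selp, the P-selectin gene, whose value was 218 in sgKrt19 8 and between 31.1 and 49.4 in the other 6 libraries. Ccl21a, a chemokine of lymphatic endothelium with near-identical gene copies that could share its reads, was the 1 of 5 tested lymphatic genes that was higher (log2 fold change 2.15, limma adjusted p = 0.00648). Its level was low, at 2.79, 3.95, 10.0 and 6.49 in the controls and 40.5, 16.0 and 29.4 in the sgKrt19 tumors. The value in sgScramble 1 amounts to 3 reads. With a pseudocount of 10 the log2 fold change of Ccl21a was 1.26 (limma adjusted p = 0.0048). Lyve1, a hyaluronan receptor, had −0.05 and was not called. The lymphatic master gene Prox1 was too low to test. In the controls Efnb2 and Ephb4 had mean values of 5131 and 4088, without division by transcript length. Both were above Pecam1 (1282), the identity gene with the highest control mean on this scale. The other tested arterial, venous and lymphatic genes had lower control means than Pecam1. The part of cancer cells and stroma in the values of these lists was not tested.

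Capillary genes known from muscle and fat, 8 of them tested, had a median log2 fold change of 0.69. Beside 17.9% of all tested genes, 1 of the 8 was called higher by limma. That gene was the water channel Aqp1 (log2 fold change 0.79, limma adjusted p = 0.00185). Of the 8, edgeR called 2 higher and DESeq2 3, beside 3689 and 4109 of all 21322 tested genes. By limma 4 of the 8 were higher at an unadjusted p under 0.05, a threshold for which the share of all tested genes is not given here. Fabp4 and Cd36, which handle fatty acids, had log2 fold changes of 1.13 and 0.88 with limma adjusted p of 0.0672 and 0.174. Both were called without sgScramble 1 (limma adjusted p = 0.00829 and 0.0425), the control with the highest Fabp4 (1610) and Cd36 (427). That library also had the highest summed adipocyte markers of all libraries, 2102. The part of adipocytes in Fabp4 and Cd36 was not tested. At the low end, the lipoprotein lipase gene Lpl had 0.35 and Car4, a carbonic anhydrase, 0.04, and neither was called. Of 7 genes of sprouting endothelium, 2 were higher and 2 lower (median −0.05), beside 17.9% and 16.0% of all tested genes. Esm1 rose by 0.63 and the apelin receptor gene Aplnr by 0.56 on the log2 scale. These calls were lost with library size alone and without any of several libraries (limma adjusted p up to 0.128). The ligand gene Apln fell by 0.57 and the VEGF coreceptor gene Nrp1 fell by 1.24. Control means of Aqp1, Lpl and the sprouting gene Unc5b were 5551, 1468 and 4187, above Pecam1 (1282). The other tested capillary and sprouting genes had lower control means than Pecam1. The part of cancer cells and stroma in the values of these lists was not tested.

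**Figure D4:**
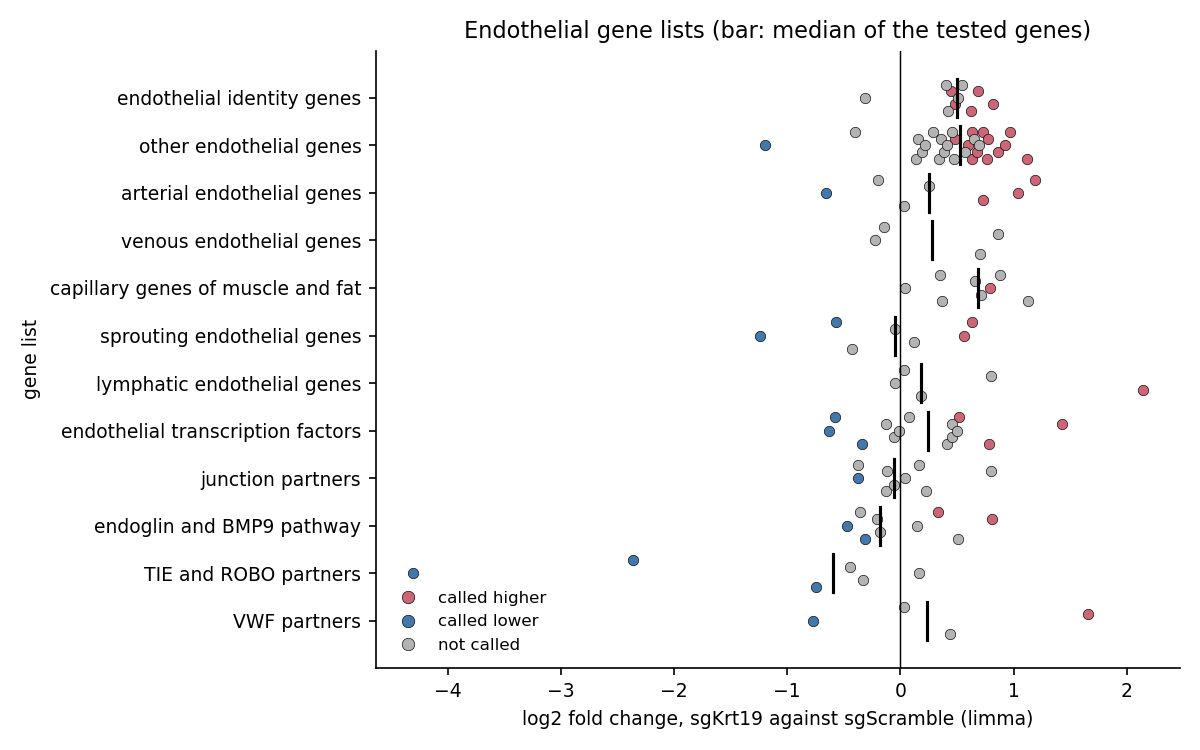
Log2 fold changes (horizontal axis, limma, sgKrt19 against sgScramble) of the tested genes of each list, with 1 point per gene and a bar at the median. Red points were called higher, blue points lower and grey points were not called. The medians of the identity genes and of the other endothelial genes were 0.50 and 0.52. Calls in both directions stand in the lists of other endothelial, arterial and sprouting genes, transcription factors, the endoglin and BMP9 pathway and VWF partners. Over all tested genes 17.9% were called higher and 16.0% lower.

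Partners of the 10 genes were described by the same rule. Many of them, such as the catenins, are expressed by cancer cells and stroma too. Limma called 17.9% of all tested genes higher and 16.0% lower. Of 14 transcription factors known in endothelium, 3 were higher and 3 lower (median log2 fold change 0.25). Klf4 had the largest rise, 1.43 on the log2 scale, with 1288, 1253, 1935 and 1308 in the controls and 3826, 4009.7 and 3639 in the sgKrt19 tumors, and Lmo2, a bridging factor of the TAL1 complex, rose by 0.78. Ets1, an ETS factor related to ERG, fell by 0.63 and Hhex by 0.58. Of 9 junction partners none was called higher by limma or edgeR, 1 was higher at an unadjusted p under 0.05, and 1, Jup, was called lower (log2 fold change −0.38, limma adjusted p = 0.0207), a call lost without sgScramble 2, 3 or 4 or sgKrt19 5 or 8 (limma adjusted p 0.0502 to 0.0770). Jam2 had a log2 fold change of 0.23 and Tjp1 of −0.37, and neither was called. Ocln, the occludin gene, had 0.80 (limma adjusted p = 0.0521) and was called by DESeq2 and without sgScramble 1 or sgScramble 3 (0.0355 and 0.0161).

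In the endoglin and BMP9 pathway, 2 of 9 tested genes were higher and 2 lower (median log2 fold change −0.18). The shares of all tested genes were 17.9% higher and 16.0% lower. Id1, a target gene of the pathway, rose by 0.81, and Id3, another target, had 0.51 and was called only without sgScramble 3 or sgKrt19 6 (limma adjusted p = 0.0473 and 0.0314). Smad7, an inhibitor of the pathway, fell by 0.47, a call lost without sgScramble 2 or sgKrt19 5 (limma adjusted p = 0.0522 and 0.0612). The receptor gene Bmpr2 had −0.36 and was not called, except by DESeq2, with library size alone and without sgScramble 1 (limma adjusted p = 0.0363). Of 6 partners of the TIE and ROBO receptors, 3 were lower (median −0.59), and none was higher by limma, edgeR or DESeq2 or at an unadjusted p under 0.05. Robo2 fell by 4.31 on the log2 scale, from 79.9, 91.9, 111 and 132 in the controls to 3.47, 5.0 and 4.2 in the edited tumors, which amount to only a few reads. Angpt1, the angiopoietin ligand of the TIE2 receptor, had 0.17 and was not called. Of 4 tested partners of von Willebrand factor, Rab27a, a small GTPase that tethers secretory granules, rose by 1.66, and F8, the coagulation factor VIII gene, fell by 0.77 (limma adjusted p = 0.0455). F8 had 70.6, 103.7, 53.9 and 102.9 in the controls and 42.8, 45.0 and 51.5 in the edited tumors, with all edited tumors below all controls. Its call was lost without any 1 of 6 of the 7 libraries, the exception being sgScramble 3 (limma adjusted p 0.0530 to 0.126).

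The genes whose pattern over the 7 libraries was most like the mean pattern of the 10 were Dysf, Pde2a, Hoxd8, Gdpd5, Pcdh12, Rftn1, Thsd1, Mmrn2, Plvap and Mical1. Likeness was the root mean square difference in centred log2 value, which ran from 0.061 for Dysf to 0.109 for Mical1 among 12631 genes with a mean value of at least 100. Mmrn2 and Plvap are also in the list of other endothelial genes. Dysf had 153, 174, 206 and 231 in the controls and 265, 243 and 286 in the edited tumors. The genes of the set, which enter the mean themselves, ranked from 4 for Pecam1 and 9 for Cdh5 to 691 for Egfl7, 1223 for Emcn and 8594 for Vwf.

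Markers of other cell types also differed between the groups, where limma called 17.9% of all tested genes higher and 16.0% lower. All 10 skeletal muscle markers were higher in the sgKrt19 tumors, and their sum was 293 to 2834 in the controls and 21699 to 30996 in the edited tumors, with Acta1 the most abundant. All 7 leukocyte markers were higher as well, with sums of 11004 to 15343 and 19199 to 26311, led by Laptm5. In epithelial cancer cells 4 of 7 markers were higher, led by Krt8, with sums of 119355 to 156961 and 246353 to 260142. Most of this sum came from Krt8 and Krt18, keratin genes like the edited Krt19. Their means were 55494 and 49260 in the controls and 103416 and 95589 in the edited tumors. Epcam, Cldn7 and Cldn4 had log2 fold changes of 0.06, 0.47 and −1.23 and were not called. The part of muscle, leukocytes and cancer cells in the endothelial values was not tested. Of 12 markers of mural cells, which wrap vessels, 4 were higher and the sums were 12871 to 14866 and 15177 to 21873, led by Acta2. The 4 were Rgs5, Cspg4, Kcnj8 and Acta2. Acta2 and Tagln had means of 3212 and 2874 in the controls and 5129 and 4019 in the edited tumors. Tagln was not called (limma adjusted p = 0.251). It had 6211 in sgKrt19 5, but 2734 and 3112 in sgKrt19 6 and 8, within the range of the controls (2334 to 3755). Pdgfrb and Notch3 had negative log2 fold changes of −0.37 and −0.22, Mcam had 0.01, and none of these was called.

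For megakaryocytes and platelets, which also express Pecam1 and Vwf, 5 of 10 markers could be tested and none was called by limma, edgeR or DESeq2, with 1 lower at an unadjusted p under 0.05. Their sums were 903 to 1122 and 849 to 1697, led by Pf4, and 2 of the 10 were at or under 3 reads in every library. Macrophage markers, of which 1 of 5 was lower (16.0% of all tested genes), summed to 19956 to 29708 and 22368 to 36301, led by Lyz2. Adipocyte markers, of which 1 of 6 tested was lower, summed to 780 to 2102 and 926 to 1247, led by Cidec. Fibroblast sums, led by Col1a1, were 61220.1 to 148750.0 and 75579 to 86524, and sums for skin keratinocytes, led by Krt10, were 157 to 218 and 165 to 251. None of the 6 fibroblast markers or the 2 tested keratinocyte markers was called or had an unadjusted p under 0.05 by limma, although DESeq2 called 1 fibroblast marker lower. The part of these cells in the endothelial values was not tested.

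**Figure D5:**
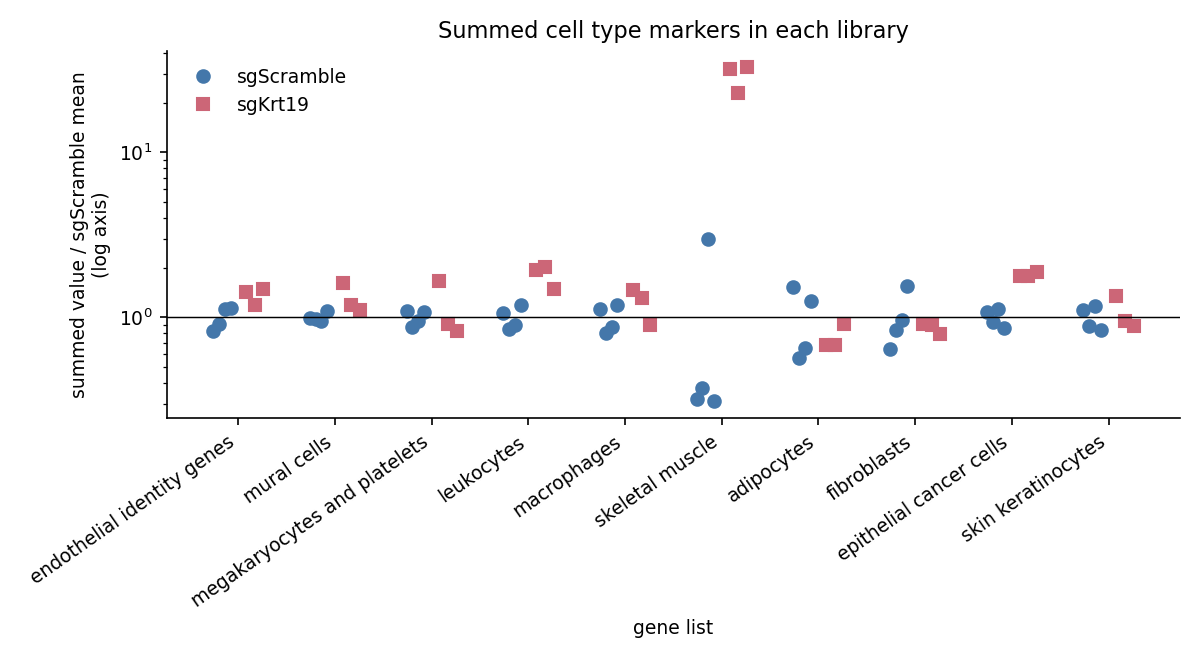
Summed normalized read counts of the 10 endothelial identity genes and of each list of cell type markers in each library, divided by the mean of the sgScramble tumors (log axis). Circles are sgScramble and squares sgKrt19 tumors. The sums for mural cells, skeletal muscle, leukocytes and epithelial cancer cells, like the endothelial sum, are higher in each of the 3 sgKrt19 tumors than in each of the 4 sgScramble tumors. The mural and epithelial lists also hold genes that were not called, some with a negative log2 fold change.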

How the data were processed

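RNA was sequenced from 7 subcutaneous PDA tumors with single reads of 76 bases after 12 cycles of cDNA amplification. The labels call the RNA polyA RNA, whereas the methods name a total RNA kit. The authors deposited a table of 38026 genes whose values are a signal, that is, reads per gene divided by a size factor of each library. Whole reads were recovered from the deposited values for 100% of values, within a tolerance of 0.1 read. The submitters' processing notes name the build mm10. The aligner, the counting program and the annotation are not given in the sources used here, nor is it stated whether counting used strand, so reads in exons shared with another gene are uncertain.

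The 10 genes, the gene lists and the rule for naming genes were chosen with earlier results of these data known. The 21322 genes that reached a value of 10 in 3 or more libraries entered limma 3.58.1 (R 4.3.3, lmFit and eBayes with a trend) on log2(value + 1), with the group as the only term, Benjamini-Hochberg adjustment over all tested genes and a threshold of 0.05. The pseudocount understates changes of genes with low values. The script was checked on simulated data. Alternatives were edgeR 4.0.16 (quasi-likelihood) and DESeq2 1.42.0 on the recovered reads, scaling by library size alone or by TMM, pseudocounts of 0.5 and 10, no filter, limma's treat for a change beyond 1.5-fold, and leaving out each library in turn, 15 in all.

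From each pathway list the text names the tested genes with the largest and smallest log2 fold change, and the next on each side in lists of more than 6 tested genes. Aqp1 and Prox1 fall outside this rule and were chosen after their values were seen. Where a symbol stood in more than 1 row, the row with the older Ensembl identifier was used. RPKM uses the longest protein-coding transcript of GENCODE M21 (GRCm38), and 97.74% of gene identifiers have the same version there. Depth was 40781199 to 44972100 reads per library, and 3 reads correspond to a value of 2.74 to 3.47. That floor covers counting error only, because the reads carry no molecular identifiers. The labels name no batch.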

Additional observations from a re-analysis of the deposited data

Results flagged for a closer look

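In a search of 77 sets of 4 control values for 1 library far from the others by Dixon's criterion, 3 were found, and chance gives about 1 in 20. The skeletal muscle sum was 2834 in sgScramble 3 and 293 to 354 in the other controls, a gap of 0.976 of the group's whole range. Klf4 was 1935 in sgScramble 3 and 1253 to 1308 in the other controls, a gap of 0.92 of the range. Apln was 579 in sgScramble 4 and 503 to 513 in the other controls, a gap of 0.874 of the range. None of the 10 endothelial identity genes met the criterion.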

How the results depend on the processing

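The count of identity genes called higher was 5. It was 1 with scaling by library size alone and 0 with treat (a change beyond 1.5-fold), where no member passed even at an unadjusted p under 0.05, and it ranged from 1 to 7 when single libraries were left out. The lowest of these, 1, came without sgKrt19 8, and the count was 2 without sgScramble 2 and 2 without sgKrt19 5. It was 5 with edgeR and 6 with DESeq2. Of all 21322 tested genes, 3820 were called higher in the main fit, 2187 with library size alone and 728 with treat. They numbered 3689 with edgeR, 4109 with DESeq2 and 2624 to 4102 when single libraries were left out. The count of identity genes called lower, 0, ranged from 0 to 1, with Vwf called without sgScramble 1. The median log2 fold change of the 10 genes, 0.50, was 0.28 with library size alone. Genes called over the whole table numbered 7240, and 1336 with treat. Other endothelial genes called higher numbered 12, 5 with library size alone and 0 with treat (2 at an unadjusted p). Those called lower numbered 1, 2 with edgeR, DESeq2, library size alone and TMM, 0 with treat, and 1 to 2 when single libraries were left out (2 without sgScramble 3 or sgKrt19 5). Signs turned for 3 genes that were not called: Angpt1 had −0.048 and Car4 −0.17 with library size alone, and leaving out single libraries gave −0.36 to 0.38 for Car4 and −0.41 to 0.29 for Lyve1. The causes were not tested. By design, treat has a stricter null and the fits without a library have fewer samples. The pseudocounts and the absence of a filter left the count of identity genes called at 5. No paired analysis was possible because the groups share no replicate number. Depth did not limit the identity genes, which had at least 91 reads in every library, but 3 and 4 tumors per group leave wide intervals.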
